A study of Homo sapiens with 6 samples.

Results

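Complement is a set of plasma and membrane proteins that tags and lyses cells. Described here are 9 of its genes in ARPE-19, a human cell line of retinal pigment epithelium, of 30618 genes counted: C3, CFB, CFI, C1R, C1S, CD46, CD55, CD59 and SERPING1. They were chosen by symbol as components and regulators of complement, with earlier results of these data known, and each was found once. All cells were kept in 50 mM glucose. The NC group (3 libraries) received a non-targeting siRNA and the siEIF1 group (3 libraries) an siRNA against EIF1, a factor that helps the ribosome to choose a start codon. Both groups were transfected with a lipid reagent, and no library of cells in normal glucose or with an osmotic control is in these groups. The study describes the replicates as biological and the line as transformed, and the design asks which transcripts differ when EIF1 is depleted under high glucose.

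Complement activation runs through 3 routes. In the classical route, C1q binds a target and activates the proteases C1R and C1S, which SERPING1 (C1 inhibitor) blocks. Every route leads to cleavage of C3, the central component, whose fragment pairs with CFB in the convertase of the alternative route. Host cells are shielded by CD46 (membrane cofactor protein) and by CFI, which together degrade C3b, by CD55, which dissociates convertases, and by CD59, which blocks the membrane attack complex. CD55 and CD59 are held in the membrane by a glycosylphosphatidylinositol (GPI) anchor. The retinal pigment epithelium is known to make several of these proteins, and complement at this layer is studied in macular degeneration.

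EIF1 itself was lower in the siEIF1 libraries, at a mean of 105 CPM (counts scaled to library size) against 1262 (log2 fold change -3.58, edgeR adjusted p = 1.08e-13). The libraries held 26499929 to 28270778 counts in the NC group and 29665044 to 31431479 in the siEIF1 group, and the share of mitochondrial counts was 9.23% to 9.56% against 9.68% to 9.98%. Both ranges are apart between the groups, and their part in the results was not tested. Of the retinal pigment epithelium markers, BEST1, MITF, OTX2 and SERPINF1 had a mean FPKM of at least 1. PMEL and RLBP1 were below it (RLBP1 was called higher, with a log2 fold change of 1.55), and TYR, TYRP1 and DCT were at or near 0. RPE65 and TTR had no values in the data used here and were not analysed. The summed FPKM of the 9 markers analysed was 87.1 to 96.7 in NC and 66.1 to 89.8 in siEIF1. The markers of macrophages summed to 1.08 to 1.21 and 1.15 to 1.28, those of endothelium to 0.20 to 0.26 and 0.14 to 0.26, and those of hepatocytes, a main source of plasma complement, to 0.02 to 0.11 and 0.01 to 0.12. Of these, CD14, CX3CR1, ITGAM, PECAM1, VWF, CDH5, TEK, ALB, APOA1, TF and FGB were at or near 0. CD68, CSF1R and KDR had enough counts to test and were not called. These sums cover 5 of 8 listed macrophage markers, 5 of 5 of endothelium and 4 of 6 of hepatocytes, none with a mean FPKM of 1. The epithelial markers were higher in siEIF1, at a summed FPKM of 499.6 to 521.9 against 426.1 to 449.9 (KRT8 and KRT18 were called, and CDH1 and EPCAM were near 0), and so were the fibroblast markers, at 11.5 to 13.9 against 6.83 to 9.59, almost wholly from PDGFRB, with COL1A2, COL3A1 and THY1 near 0. The part of these shifts in the results was not tested. In bulk RNA, a change in how many cells make a transcript and a change in transcript per cell cannot be told apart.

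Of the 9 genes, 8 passed the filter on low counts and entered the test. The call was an adjusted p under 0.05 (edgeR's quasi-likelihood test, Benjamini-Hochberg adjustment over 16749 genes), and 5 of the 8 were called, against 20.6% of all tested genes. C1R, C1S, C3 and CD46 were higher in siEIF1, where 10.2% of all genes were called higher, and CD55 was lower, where 10.4% were called lower. SERPING1, CFI and CD59 were not called. The limits of the study also ask for a fold change above 2 or below 0.5, which 1.71% of all genes passed in edgeR and 0 of the 8 did. At an unadjusted p under 0.05 it was 6 of the 8, SERPING1 included, against 32.6% of all genes. DESeq2, without the fold limits, called 4 higher and 1 lower, against 20.1% of the genes it gave an adjusted p. In CPM, NC and siEIF1 were apart in 6 of the 8, against 37.1% of all genes. The median log2 fold change of the 8 was 0.18, and that of all tested genes was 0.0033.

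The promoters are printed for C1R and CD46, which rose, for CD55, which fell, and for CFB, which was hardly counted. Each run is the 250 bases before the start site, 5′ to 3′ on the strand of the gene, from RefSeq on GRCh38.p14, at chr12:7092446-7092695 (minus strand) for the first of the start sites listed for C1R, chr1:207751788-207752037 (plus) for CD46, chr1:207321428-207321677 (plus) for CD55 and chr6:31945845-31946094 (plus) for CFB. The gene spans given below come from GENCODE, and some begin at other positions than these start sites. By those spans the CFB run lies inside the gene, and the C1R and CD55 runs reach into theirs. Capitals mark matches, on either strand, to motifs of factors that carry cytokine signals or of the core promoter. The matches printed do not overlap one another.
C1R: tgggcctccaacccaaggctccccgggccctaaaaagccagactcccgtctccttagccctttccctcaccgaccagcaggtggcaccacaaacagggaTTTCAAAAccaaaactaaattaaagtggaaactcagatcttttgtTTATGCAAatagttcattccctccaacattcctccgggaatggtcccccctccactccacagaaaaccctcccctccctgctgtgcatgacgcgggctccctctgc
CD46: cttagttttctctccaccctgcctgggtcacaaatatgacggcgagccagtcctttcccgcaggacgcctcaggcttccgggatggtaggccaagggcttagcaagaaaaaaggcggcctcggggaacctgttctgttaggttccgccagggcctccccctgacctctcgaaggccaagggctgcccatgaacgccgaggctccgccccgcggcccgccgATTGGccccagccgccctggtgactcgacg
CD55: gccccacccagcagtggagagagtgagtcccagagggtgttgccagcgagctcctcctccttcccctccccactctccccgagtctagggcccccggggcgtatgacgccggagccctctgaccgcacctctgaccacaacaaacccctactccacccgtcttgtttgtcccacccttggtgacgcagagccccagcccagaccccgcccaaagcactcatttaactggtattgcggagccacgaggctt
CFB: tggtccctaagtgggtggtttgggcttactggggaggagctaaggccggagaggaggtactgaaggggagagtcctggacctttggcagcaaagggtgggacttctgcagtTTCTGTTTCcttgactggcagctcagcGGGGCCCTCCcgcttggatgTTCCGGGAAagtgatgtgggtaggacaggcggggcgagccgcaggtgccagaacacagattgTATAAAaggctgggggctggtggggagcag

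The motifs searched were an interferon-stimulated element (GAAANNGAA), a gamma-activated site bound by STAT factors (TTCNNNGAA), the NF-kB motif, a C/EBP motif (TTNNGNAA), the CCAAT box (CCAAT) and the TATA box (TATAAA). The C1R run held 2 C/EBP matches and no other, where 33.2% of 35116 promoter windows of this length hold at least 1. The window of a second start site of C1R held a C/EBP match and a gamma-activated site. The CD46 run held 1 CCAAT box (32.0% of windows), and the CD55 run held no match. The CFB run held an interferon-stimulated element (6.88% of windows), a gamma-activated site (6.57%), an NF-kB match (12.3%) and a TATA box (10.7%). Of the windows not printed, the first of CD59 held a gamma-activated site, an NF-kB match and a CCAAT box. The second of CD59 held a gamma-activated site and a CCAAT box, the third 2 C/EBP matches and a CCAAT box, and the fourth no match. That of CFI held 2 C/EBP matches and a CCAAT box. A match is a run of letters and was not tested as a binding site. Windows were matched for 6 of the 9 genes, and C3, C1S and SERPING1 had no entry.

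C1R and C1S, the paired proteases of the C1 complex, rose by similar amounts. They lie near each other on chromosome 12 of GRCh38 (GENCODE release 44), C1S on the plus strand from 6988259 to 7071032 and C1R on the minus strand from 7080214 to 7092540. C1R had an FPKM (fragments scaled to transcript length and library size) of 4.46, 4.53 and 4.93 in NC replicates 1 to 3 and of 5.49, 6.15 and 6.09 in siEIF1 replicates 1 to 3. Every siEIF1 library lay above every NC library. The group means were 4.64 ± 0.146 and 5.91 ± 0.211 (SEM, n = 3 each), and on the counts the log2 fold change was 0.37 (standard error, SE, 0.065, edgeR adjusted p = 0.00133), a rise of 29.2%. C1S had an FPKM of 4.95, 5.61 and 5.49 in NC and of 6.28, 6.93 and 6.28 in siEIF1, again without overlap. Its log2 fold change was 0.30 (SE 0.068, edgeR adjusted p = 0.00711). Within each library the ratio of C1R to C1S was 0.81 to 0.90 in NC and 0.87 to 0.97 in siEIF1, so the groups overlapped. LPCAT3, on the other strand, covers 30219 bases of C1S and had a log2 fold change of -0.11 (edgeR adjusted p = 0.412). On the same strand, the protein-coding gene ENSG00000290146 shares 9170 bases with C1S, and no counts are given for it. C1RL, with 104.7% of the mean count of C1R, shares 2954 bases with C1R on the same strand.

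SERPING1, the serpin that inactivates C1R and C1S, was not called. It lies on chromosome 11 from 57597387 to 57619171. Its FPKM was 5.48, 5.58 and 5.85 in NC and 6.09, 6.17 and 6.01 in siEIF1. The groups did not overlap, but the difference was small, with a log2 fold change of 0.13 (95% interval 0.020 to 0.25, edgeR adjusted p = 0.0940). The ratio of the proteases to their inhibitor, C1R plus C1S over SERPING1 in FPKM, was 1.72, 1.82 and 1.78 in the NC libraries and 1.93, 2.12 and 2.06 in the siEIF1 libraries. Each siEIF1 library was above each NC library, and the mean ratio was 1.15 times as high. No test was run on the ratio. Its size, though not the comparison of the groups, depends on the gene lengths used for FPKM.

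C3, on chromosome 19 from 6677704 to 6730562, rose by 16.3%. Its FPKM was 6.77, 6.91 and 7.14 in NC and 7.47, 7.96 and 8.46 in siEIF1, and the highest NC library lay below the lowest siEIF1 library. The log2 fold change was 0.22 (SE 0.053, edgeR adjusted p = 0.0103). The call was lost without siEIF1 replicate 2 (edgeR adjusted p = 0.0503). GPR108 shares 649 bases with C3 on the same strand, and it was called higher too, with a log2 fold change of 0.16 (edgeR adjusted p = 0.0292).

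CFB, the alternative-route protease that joins C3b, was hardly counted. Its counts were 0, 2 and 4 in NC and 1, 1 and 0 in siEIF1, so it did not enter the test and no fold is given. All libraries but NC replicate 3 lay under 3 counts, the limit that a count of 0 allows, or 0.097 to 0.11 CPM. CFB lies on chromosome 6 from 31945650 to 31952086. Nearly all of it, 6399 bases, lies inside a second annotated protein-coding gene on the same strand (ENSG00000244255), which had 33, 27 and 35 counts in NC and 27, 34 and 28 in siEIF1. The counting program is not given in the sources used here, so how reads shared by both were assigned is unknown. Summed over the pair, the log2 fold change was -0.26 (95% interval -0.79 to 0.27, edgeR adjusted p = 0.513).

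CFI, the soluble protease that cleaves C3b, was also low, with 14, 23 and 11 counts in NC and 32, 26 and 17 in siEIF1. The groups overlapped, and its log2 fold change was 0.53 (95% interval -0.21 to 1.27, edgeR adjusted p = 0.317). CFI lies on chromosome 4 from 109731008 to 109802150, and 70992 of its bases are shared, on the same strand, with the protein-coding gene AC004067.6 (ENSG00000285330). That gene, named here for its position and after its values were seen, had 27, 33 and 28 counts in NC and 55, 51 and 61 in siEIF1. Its log2 fold change was 0.81 (SE 0.21, edgeR adjusted p = 0.0142). The groups were well apart in AC004067.6 and overlapped in CFI. When the counts of both were summed, an alternative added after seeing the data, the libraries held 41, 56 and 39 counts in NC and 87, 77 and 78 in siEIF1, and the log2 fold change was 0.72 (95% interval 0.32 to 1.12, edgeR adjusted p = 0.0152). Most counts of the sum belong to AC004067.6, and CFI by itself was not called in any of the 14 alternatives.

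The membrane regulators were the most abundant of the 9 genes and did not move together. CD55 (decay-accelerating factor), on chromosome 1 from 207321519 to 207386804, had the smallest p of the 8. Its FPKM was 27.1, 26.7 and 25.2 in NC and 20.9, 21.1 and 20.7 in siEIF1, so every siEIF1 library was lower. The means were 26.3 ± 0.570 and 20.9 ± 0.101 (SEM, n = 3 each), and the log2 fold change was -0.31 (SE 0.050, edgeR adjusted p = 7.26e-04), which is a change of -19.4%. CD46, on the same strand of the same chromosome from 207752037 to 207795513, differed in the other direction, with an FPKM of 15.7, 14.9 and 15.4 in NC and of 16.7, 16.3 and 17.3 in siEIF1. The groups did not overlap, and the log2 fold change was 0.15 (SE 0.044, edgeR adjusted p = 0.0306). This call is weak, since it was lost without NC replicate 2 (edgeR adjusted p = 0.133), NC replicate 3 (0.123), siEIF1 replicate 1 (0.0630) or siEIF1 replicate 2 (0.0772). A noncoding gene on the other strand, MIR29B2CHG, covers 34864 bases of CD46, and its log2 fold change was 0.19 (edgeR adjusted p = 0.630).

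CD59 (protectin), on chromosome 11 from 33703010 to 33736479, was not called. Its FPKM was 24.5, 19.2 and 20.6 in NC and 20.8, 18.3 and 20.2 in siEIF1, so the groups overlapped and NC replicate 1 was the highest library. The log2 fold change was -0.094 (95% interval -0.26 to 0.071, edgeR adjusted p = 0.439) and turned to 0.016 without NC replicate 1. CD59 shares 19458 bases with another protein-coding gene of the same strand (ENSG00000284969, with 45.4% of the mean count of CD59), and the sum of both had a log2 fold change of -0.075 (edgeR adjusted p = 0.553).

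Within a library, the ratio of CD55 to CD46 in FPKM was 1.72, 1.79 and 1.63 in NC and 1.25, 1.30 and 1.20 in siEIF1. The groups were far apart, and the mean ratio fell to 0.73 times its NC value. The ratio of CD59 to CD46 was 1.56, 1.29 and 1.33 in NC and 1.25, 1.13 and 1.17 in siEIF1. This is also without overlap but with a narrow gap. No test was run on these ratios, which restate the values of CD55, CD59 and CD46 in the same libraries. The summed FPKM of the 3 membrane regulators was 60.7 to 67.3 in NC and 55.7 to 58.4 in siEIF1.

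**Figure D1:**
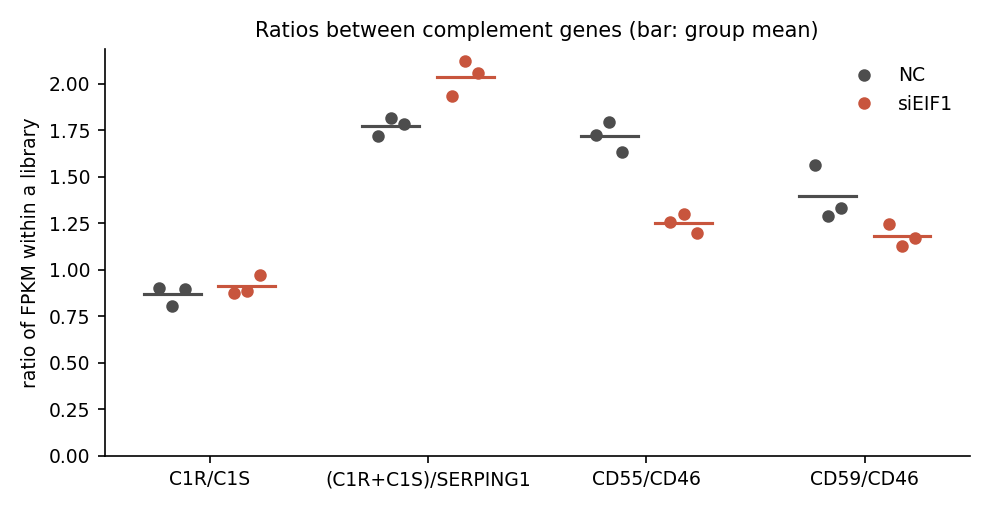
Ratios of FPKM within each library (linear axis from 0), with 1 point for each of the 3 NC and 3 siEIF1 libraries and a bar at the group mean. C1R over C1S overlaps between the groups, C1R plus C1S over SERPING1 is higher in siEIF1, and CD55 over CD46, with means of 1.72 and 1.25, is lower.

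On the FPKM scale, the order in NC was CD55, CD59, CD46, C3, SERPING1, C1S, C1R, CFI and CFB. Neighbours in this order did not overlap, except SERPING1 and C1S. The lowest C1S library, at 4.95, and the highest C1R library, at 4.93, came close. In siEIF1, C1S stood above SERPING1 without overlap, CD55 and CD59 overlapped, and so did SERPING1 and C1R. By mean FPKM over the 6 libraries, CD55 stood at percentile 95.7 of the genes with FPKM values, C3 at 86.4 and CFI at 41.3. The membrane regulators stood well above 10 FPKM, C3, SERPING1, C1S and C1R at 4 to 9 FPKM, and CFI and CFB, also secreted, under 1. An order between genes depends on the gene lengths used for FPKM, which the study does not state. In NC replicate 1, C3 had 1827 counts on a canonical GENCODE transcript of 5231 bases, and SERPING1 had 1287 on 1830 bases. Per base of these transcripts SERPING1 would stand above C3, and CD46 above CD59, the reverse of the FPKM order.

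**Figure D2:**
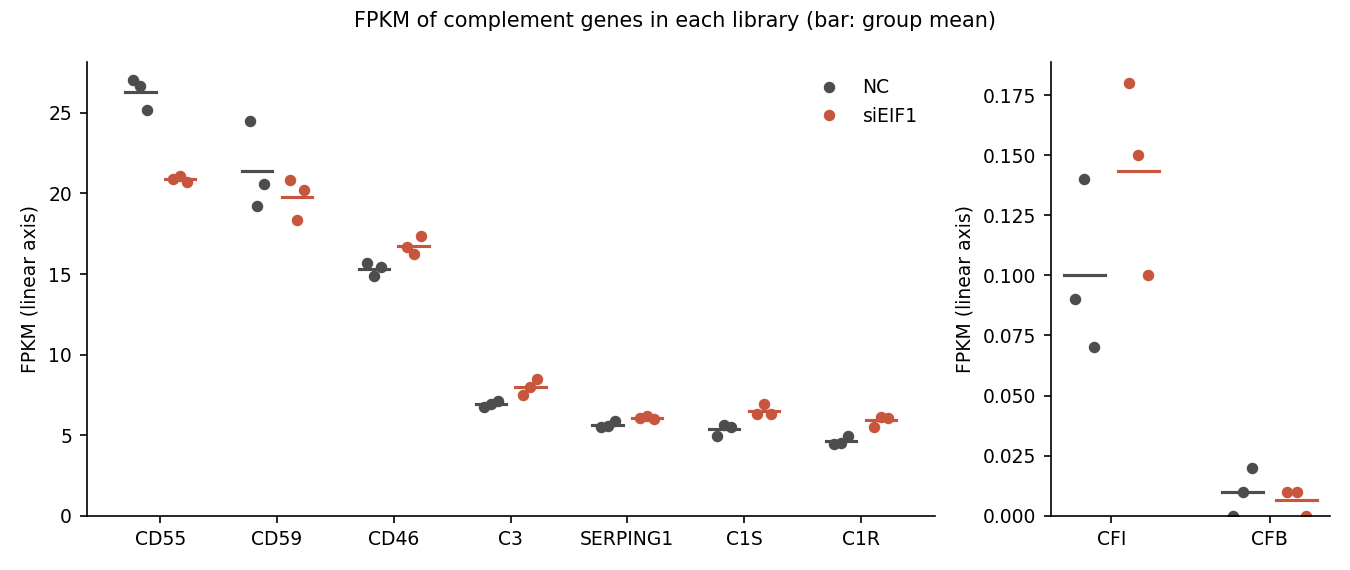
FPKM of the 9 genes (linear axes from 0, with a finer axis for CFI and CFB), with 1 point for each of the 3 NC and 3 siEIF1 libraries and a bar at the group mean. CD55 falls from a mean of 26.3 to 20.9, C1R, C1S and C3 rise, and CFB stays at 0.02 or below.

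The call of C1R, C1S and CD55 held in all 14 alternative fits (other scalings, other filters, DESeq2, limma on FPKM, the replicate block and each library left out). The fold change limits of the study are not among these 14, and no member passed them. The log2 fold change was 0.29 to 0.42 for C1R, 0.24 to 0.34 for C1S and -0.35 to -0.29 for CD55. C3 was called in 11 of the 14 and CD46 in 7. Without siEIF1 replicate 2, 2 of the 8 genes were called higher, namely C1R and C1S.

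**Figure D3:**
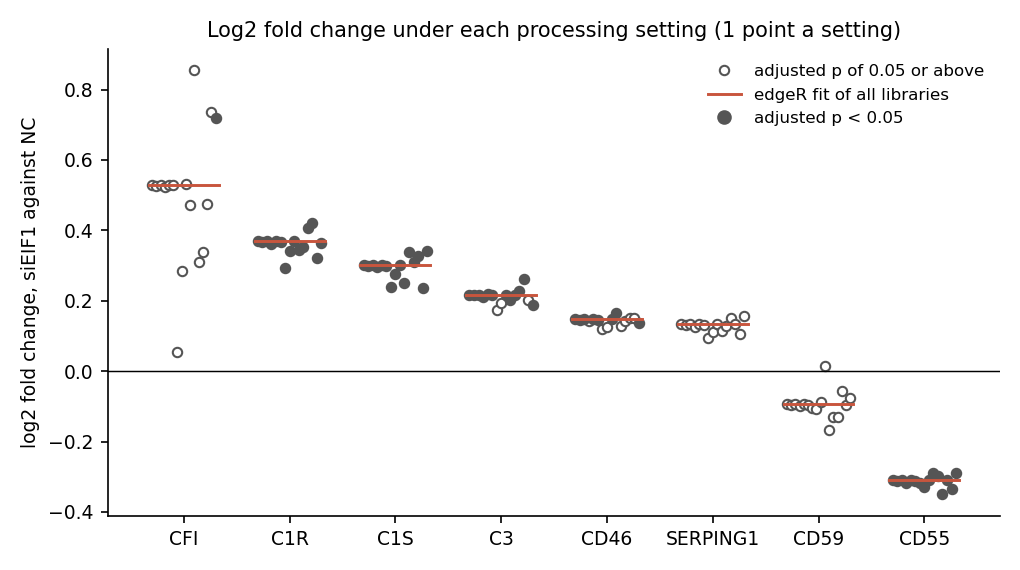
Log2 fold change (siEIF1 against NC) of the 8 tested genes under each processing setting, with filled points where the adjusted p was under 0.05 and a line at the edgeR fit of all libraries. C1R, C1S and CD55 stay filled throughout, C3 and CD46 do not, and CFI has 1 filled point, its sum with AC004067.6.

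Of 52 other complement genes, 33 were in the tables and 12 had enough counts to test, with 2 called higher and 1 lower. Over all tested genes 20.6% were called, 10.2% higher and 10.4% lower, so these counts are near the background. Both that were higher, CLU and VTN, are soluble regulators. CLU (clusterin), which binds terminal complexes, had an FPKM of 11.6, 11.9 and 12.4 in NC and of 16.6, 15.99 and 15.6 in siEIF1. Its log2 fold change was 0.44 (SE 0.050, edgeR adjusted p = 4.32e-05). Every siEIF1 library was higher, and the call held in all 14 alternatives. VTN (vitronectin), which also keeps the terminal complex out of membranes, had an FPKM of 4.49, 4.61 and 4.33 in NC and of 5.34, 6.52 and 5.51 in siEIF1 (log2 fold change 0.39, edgeR adjusted p = 0.0133), a call lost without siEIF1 replicate 2 (edgeR adjusted p = 0.0680) or NC replicate 3 (0.0593). C1QBP, a largely mitochondrial protein that binds the globular heads of C1q, was lower, with an FPKM of 76.0, 65.8 and 72.2 in NC and of 61.8, 59.4 and 61.1 in siEIF1 (log2 fold change -0.21, edgeR adjusted p = 0.0134), a call lost without NC replicate 1 (edgeR adjusted p = 0.0572) or NC replicate 3 (0.0536).

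The other 9 tested genes were not called, and some of them are thinly counted. C1RL, a C1r-like protease that shares 2954 bases with C1R on the same strand, had a log2 fold change of 0.17 (edgeR adjusted p = 0.0861), and PROS1 (protein S), which binds C4b-binding protein, 0.13 (edgeR adjusted p = 0.0768). C1RL was called without NC replicate 2 (edgeR adjusted p = 0.0499) and PROS1 without siEIF1 replicate 3 (edgeR adjusted p = 0.0303). C5, the start of the terminal pathway, had -0.28 on a mean of 72.5 counts (edgeR adjusted p = 0.262), and CFD, which cleaves CFB, 0.69 on a mean of 12.8 counts (edgeR adjusted p = 0.241). C7, C8G and C9 of the terminal pathway had too few counts to test. The receptors C3AR1, ITGAM, ITGAX and ITGB2 had at most 7 counts in any library, and C5AR1 had 29 to 54. C1QA, C1QB and C1QC, the chains of C1q, had no values in the data used here and were not analysed.

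**Figure D4:**
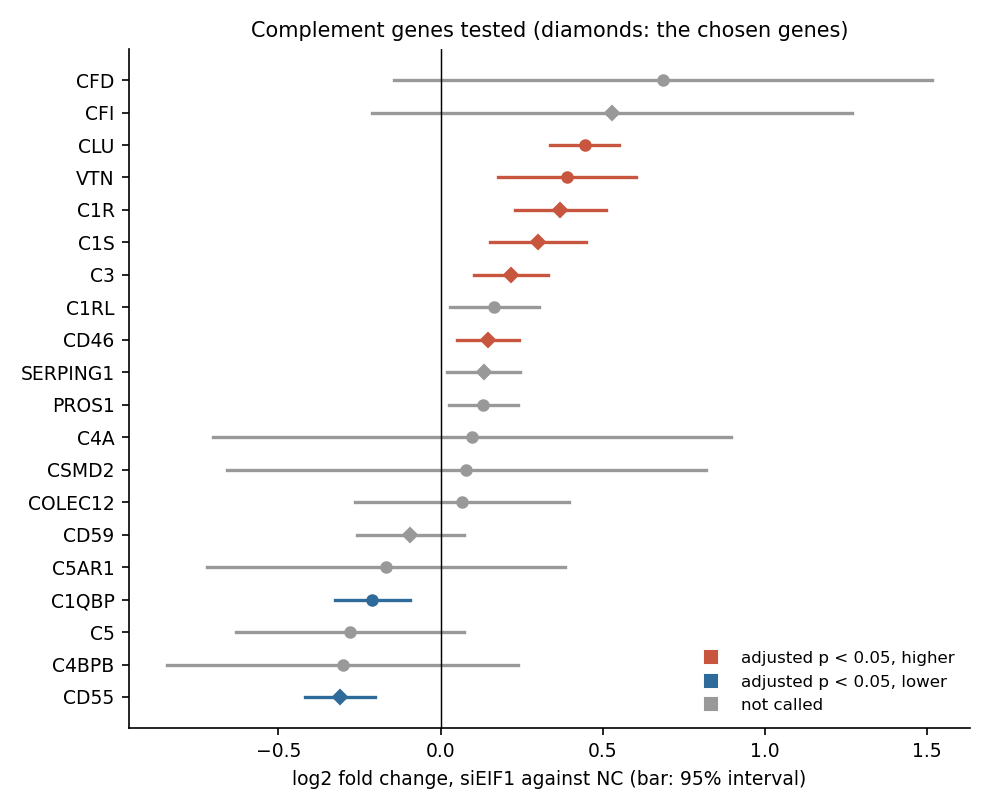
Log2 fold change (siEIF1 against NC) with its 95% interval for 20 tested complement genes, with diamonds for the 8 described in full and circles for the 12 others, coloured by call. CLU, VTN, C1R, C1S, C3 and CD46 are higher and C1QBP and CD55 lower, while CFD and CFI have wide intervals.

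Complement genes are known targets of interleukin-6, interferon and NF-kB signals, so 27 genes of these routes were read in the same fit, and all had enough counts. 1 was higher, 6 were lower and 20 were not called, with a median log2 fold change of -0.035. These counts too stand beside 20.6% called over all genes, 10.2% higher and 10.4% lower. STAT3, which carries interleukin-6 signals, had an FPKM of 3.54, 3.55 and 3.90 in NC and of 4.15, 4.68 and 5.21 in siEIF1 (log2 fold change 0.37, edgeR adjusted p = 0.00243). IL6 itself was lower, with counts of 104, 56 and 82 in NC and of 38, 33 and 47 in siEIF1 (log2 fold change -1.15, edgeR adjusted p = 0.00580). The transcription factors CEBPB (log2 fold change -0.53, edgeR adjusted p = 9.55e-06) and IRF1 (log2 fold change -0.53, edgeR adjusted p = 0.00202) were lower too. The other genes called lower were IL6ST, LIF and OSMR, with log2 fold changes of -0.23 to -0.17, named after their values were seen, and each lost its call in 4 or 5 of the 14 alternatives. Over the 14 alternatives STAT3, IL6, CEBPB and IRF1 kept their calls, whereas without siEIF1 replicate 2 the list had 3 genes called lower. The rise of C1R, C1S and C3 and the fall of IL6, CEBPB and IRF1 were measured in the same libraries, and a link between them was not tested.

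**Figure D5:**
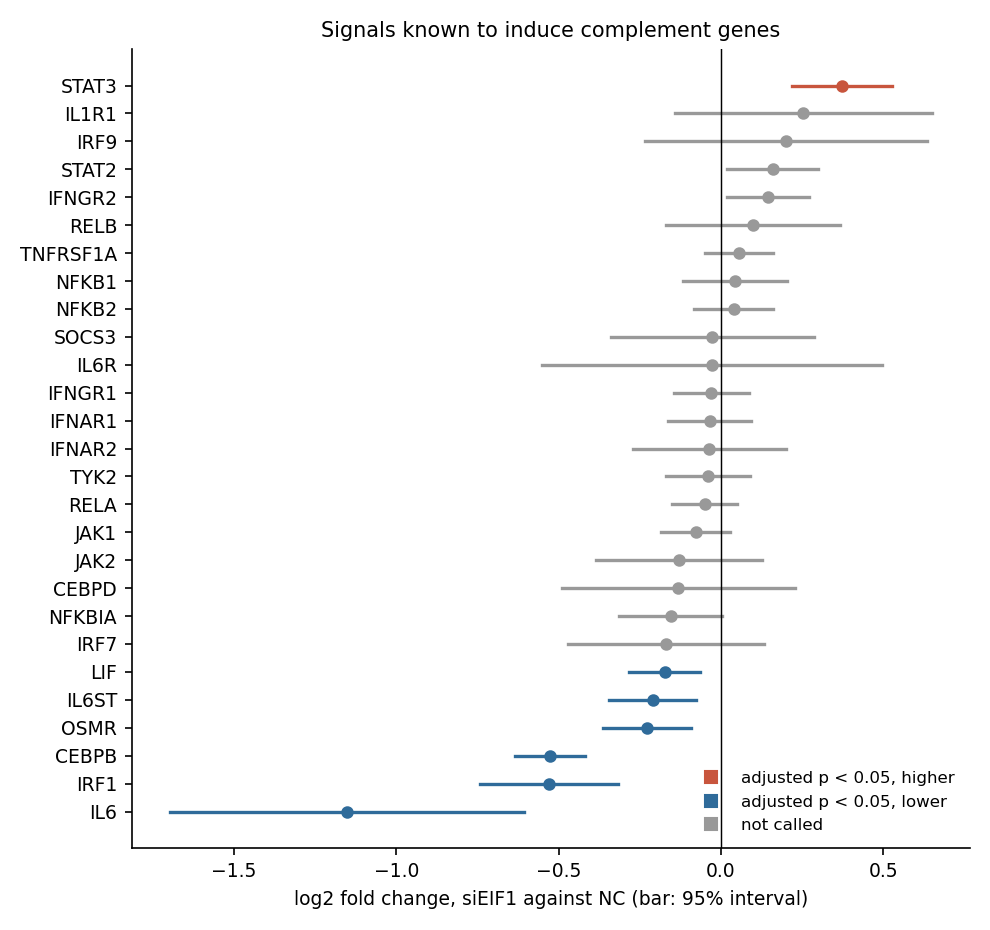
Log2 fold change (siEIF1 against NC) with its 95% interval for 27 genes of interleukin-6, interferon and NF-kB signals, coloured by call. STAT3 is the 1 gene called higher, and IL6, at -1.15, is the lowest of the 6 called lower.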

How the data were processed

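RNA-seq was done on 6 libraries of ARPE-19 cells, 3 NC and 3 siEIF1, grouped by their titles. The authors trimmed reads with FASTX-Toolkit, aligned them to GRCh38 with HISAT2 and counted uniquely mapped reads per gene. They deposited these counts without normalization, and FPKM values (fragments scaled to transcript length and mapped fragments). The study describes strand-specific libraries, but the annotation release, counting program and strand setting of the counting are not given in the sources used here. Counts of overlapping and antisense genes are therefore uncertain. The tables held 0 unmatched columns.

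Counts were filtered with filterByExpr, scaled by TMM and tested with edgeR 4.0.16 (quasi-likelihood, Benjamini-Hochberg adjustment over 16749 genes) in R 4.3.3. CPM values use the TMM library sizes, and standard errors and 95% intervals come from the quasi-likelihood F statistic. Alternatives were RLE and upper-quartile scaling, other filters on low counts, DESeq2 1.42.0, limma 3.58.1 on log2(FPKM + 1) and log2(FPKM + 0.1), the replicate block, the fold change limits of the study and leaving out each library. The fit was checked on simulated counts. The floor for a count of 0 is 3 counts, and it covers counting error only. Named are the 9 members, EIF1, the called genes of the other complement lists, the 4 genes with the smallest p among the called ones of the signal and GPI lists, the 3 genes most like the member with the smallest p, and genes that overlap a member. Any other gene was picked after its values were known. Some listed genes are not reported here, and the counts over lists leave them out. The members and lists were chosen with earlier results of these data known.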

Additional observations from a re-analysis of the deposited data

How the results depend on the processing

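CFB and CFI had few counts, and each shares most of its length with another gene. With limma on log2(FPKM + 1) and on log2(FPKM + 0.1), C3 had log2 fold changes of 0.17 and 0.19 and CD46 of 0.12 and 0.13 on those scales, neither called, and 2 genes were called higher in place of 4. The cause was not tested. CD46 was at 0.14 and not called with no filter on low counts, where 30618 genes were tested. Over the fits that leave out 1 library, the log2 fold change was 0.19 to 0.26 for C3, 0.13 to 0.17 for CD46 and -0.17 to 0.016 for CD59, which turned positive without NC replicate 1, and 2 to 4 genes were called higher. With the fold change limits of the study, 0 were called higher and 0 lower. The sum of CFI and AC004067.6, of which AC004067.6 holds most counts and is called by itself, was called at 0.72, while CFI alone was not called in any of the 14 alternatives.

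Of the other complement genes, 1 to 3 were called higher and 0 to 1 lower over the left-out libraries. Of the signal genes, 1 to 2 were called higher and 3 to 6 lower over the left-out libraries. Of the GPI anchor genes, 1 was called lower with DESeq2 and 0 to 3 over the left-out libraries.

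Replicate numbers are shared by the groups, but nothing says that they pair the libraries. The deviations of same-numbered libraries from their group means correlated at 0.15, 0.095 and 0.13 over the tested genes, and each library correlated best with its own number. With the replicate number as a block, 3 other complement genes were called higher, PROS1 being the one gained (0.13, edgeR adjusted p = 0.0254), 2 signal genes were called higher and 5 GPI anchor genes lower, and 4277 of all genes were called in place of 3446. The block changed no call of the 8 members. All 14 alternatives kept the call of EIF1.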

Other observations

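CD55 and CD59 need a GPI anchor to reach the cell surface, and 28 of 29 listed genes of anchor synthesis and attachment were tested. Of these, 1 was called higher, 3 were called lower and 24 were not called, and the median log2 fold change was -0.012. Over all tested genes 20.6% were called, 10.2% higher and 10.4% lower, so the list was not called more often than other genes. GPAA1, a subunit of the transamidase that attaches the anchor to a protein, had an FPKM of 16.2, 16.1 and 16.7 in NC and of 24.0, 23.1 and 23.2 in siEIF1. Every siEIF1 library was higher. Its log2 fold change was 0.54 (SE 0.047, edgeR adjusted p = 4.61e-06), and the call held in all 14 alternatives. PIGX, which takes part in adding the first mannose (log2 fold change -0.23), DPM2, a subunit of dolichol-phosphate-mannose synthesis (-0.18), and PIGH, a subunit of the enzyme of the first step (-0.29), were lower, with edgeR adjusted p-values of 0.0312, 0.0324 and 0.0364. These 3 calls were fragile. Without NC replicate 1, NC replicate 3 or siEIF1 replicate 3, 0 genes of the list were called lower, and without siEIF1 replicate 2 it was 1.

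Across the 6 libraries, the genes whose log2 CPM followed CD55 most closely were NTAQ1, APOL2 and PSMC3IP, with Pearson r of 0.996, 0.995 and 0.994 as a description. The libraries share the group difference, and 341 of the 13382 genes compared had an r above 0.95.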
